A study of Mus musculus with 9 samples.

Results

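The genes described here are 31 genes that mark B cells and plasma cells, read from RNA of mouse LSK cells. They were chosen by name, as the rows of the deposited raw counts whose Ensembl identifier maps to the listed symbols. The rule itself uses no measured value, but the list was drawn up with earlier results of these data known. Of the 31, 30 had a row among the 39179 gene rows of the table, and Ighd, the constant region of the immunoglobulin D heavy chain, is not analysed here. All 30 passed the filter on low counts and are among the 18576 genes tested.

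LSK cells are bone marrow cells that lack lineage antigens and carry Sca1 and cKit, a fraction with stem cells and early progenitors. All animals were C57BL/6 mice aged 6 months that had received poly(I:C) in 5 intraperitoneal injections; this RNA mimic of viral infection induces interferon and through it the Mx1-driven Cre recombinase, in blood cells and in other tissues. The wild-type group (wt_Mx+, Dnmt3a+/+ with Mx1-Cre) gave 3 libraries. The mutant group (cKI_Mx+, Dnmt3a+/m, in which Cre switches on a mutant Dnmt3a from its own locus) gave 4 libraries, named mutant_824, mutant_827, mutant_829 and mutant_830. The Cre-negative group (cKI_Cre-, the conditional allele with no Cre, given as Dnmt3a+/- in the design text) gave 2 libraries, named cre_negative_780 and cre_negative_819, and its difference from wild type joins the allele with the lack of Cre. The labels do not say whether each library is 1 animal, so p-values measure the spread between these libraries, which may be technical in part.

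B cells arise from lymphoid progenitors in the bone marrow. EBF1 and PAX5 commit a progenitor to the lineage, VPREB1 and the lambda5 protein made from Igll1 form a surrogate light chain that tests the first heavy chain, and the mature receptor then signals through CD79A and CD79B. A B cell that turns into a plasma cell secretes antibody, which JCHAIN joins into polymers and MZB1 helps to fold. LSK sorting removes cells that carry lineage antigens, and which antigens were used is not stated in the labels. In bulk RNA, more cells of a type and more RNA per cell cannot be told apart.

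Promoter sequence is printed for 5 of the members described below: both parts of the surrogate light chain, Vpreb3, Cd79a and Spib. The bases are those before the start of the gene in RefSeq, build GRCm38.p6, written 5′ to 3′ on the gene's strand. Each is 250 bases long except Cd79a, which is shown for 134 bases because the following 116 lie in an exon of a GENCODE transcript. The windows of Vpreb1 and Vpreb3 lie inside the longer spans that GENCODE gives these genes. They are upstream of the RefSeq start only. Capitals mark exact matches, on either strand, to the EBF core CCCNNGGG, the octamer ATGCAAAT bound by POU factors, or the E-box CAGGTG.

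Vpreb1, chr16:16869256-16869505, minus strand: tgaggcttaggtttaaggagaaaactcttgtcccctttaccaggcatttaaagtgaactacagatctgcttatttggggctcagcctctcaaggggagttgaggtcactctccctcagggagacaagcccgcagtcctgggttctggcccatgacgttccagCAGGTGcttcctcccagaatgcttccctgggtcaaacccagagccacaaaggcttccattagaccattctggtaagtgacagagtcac

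Igll1, chr16:16863986-16864235, minus strand: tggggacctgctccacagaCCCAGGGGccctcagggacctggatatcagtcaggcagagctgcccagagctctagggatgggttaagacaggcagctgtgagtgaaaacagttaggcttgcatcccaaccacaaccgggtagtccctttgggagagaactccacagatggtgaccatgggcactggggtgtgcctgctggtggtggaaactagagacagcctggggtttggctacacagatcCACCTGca

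Vpreb3, chr10:75948050-75948299, plus strand: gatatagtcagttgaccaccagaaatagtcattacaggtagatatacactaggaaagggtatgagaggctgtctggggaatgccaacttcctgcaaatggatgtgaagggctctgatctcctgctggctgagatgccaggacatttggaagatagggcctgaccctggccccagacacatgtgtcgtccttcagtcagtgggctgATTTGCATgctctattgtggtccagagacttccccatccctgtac

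Cd79a, chr7:24897247-24897380, plus strand: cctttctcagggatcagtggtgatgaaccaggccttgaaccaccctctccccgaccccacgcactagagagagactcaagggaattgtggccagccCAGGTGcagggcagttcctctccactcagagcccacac

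Spib, chr7:44532072-44532321, minus strand: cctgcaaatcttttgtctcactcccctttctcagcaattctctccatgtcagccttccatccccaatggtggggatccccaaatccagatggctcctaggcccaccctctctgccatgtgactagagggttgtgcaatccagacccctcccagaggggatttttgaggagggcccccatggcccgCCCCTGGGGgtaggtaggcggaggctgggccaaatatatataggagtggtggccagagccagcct

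Such matches are a description of the letters and not of binding. RefSeq windows were found for 23 of the 31 members, 26 windows in all, because Ebf1 and Fcer2a have several starts. The EBF core was present in 5 of the 26 windows (Bank1, Cd22, Igll1, Sdc1 and Spib) and in 11.8% of 32851 windows of the same length over all genes. Spib holds it at 2 positions that overlap by all but 1 base, 65 to 57 bases before its start. The octamer was present in Vpreb3, 45 to 38 bases before its start, and in Blnk, against 1.60% of all windows. The E-box was present in 11 windows, against 17.2% of all windows, and lay 88 to 83 bases before the start of Vpreb1 and 154 to 149 before that of Cd79a.

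Reads assigned to genes numbered 47792306 to 58405879 per library. Summed markers of LSK cells stood at 2315 to 3406 CPM (reads of a gene scaled to library size, here by TMM), with Cd34 the highest. The targeted gene Dnmt3a stood at 148 to 173 CPM in wild type, at 153 to 171 in mutant libraries and at 118 and 93.5 in the Cre-negative ones, and a count per gene does not show which allele was read. With edgeR's quasi-likelihood test and Benjamini-Hochberg adjustment, 0 of the 18576 genes passed 0.05 in any of the 3 comparisons, while 589, 972 and 978 had an unadjusted p under 0.05 in mutant against wild type, Cre-negative against wild type and mutant against Cre-negative.

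Levels of the members spanned a wide range. Per kilobase of merged exon, Igkc, the constant region of the kappa light chain, was the most abundant with a mean of 114 reads per kilobase, scaled like CPM, over the 9 libraries. Jchain followed at 32.4, Cd79b at 25.0, Cd37 at 15.1, Cd72 at 11.1 and Sdc1 at 4.18. Pax5 was the lowest at 0.0776, behind Fcmr at 0.130. Ranges over the 9 libraries overlapped in each of the 29 pairs of neighbours in the order. Within libraries, 4 of these pairs kept their order in all 9 (Igkc above Jchain, Cd79b above Cd37, Cd37 above Cd72 and Cd72 above Sdc1), and the other 25 pairs did not. The 2 chains of the receptor complex were unequal: Cd79b exceeded Cd79a by 17.4 to 51.5 times per kilobase in every library. Only 7 members (Igkc, Jchain, Cd37, Cd72, Cd79b, Sdc1 and Bach2) had a mean of at least 10 CPM, and the other 23 were below it.

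**Figure D1:**
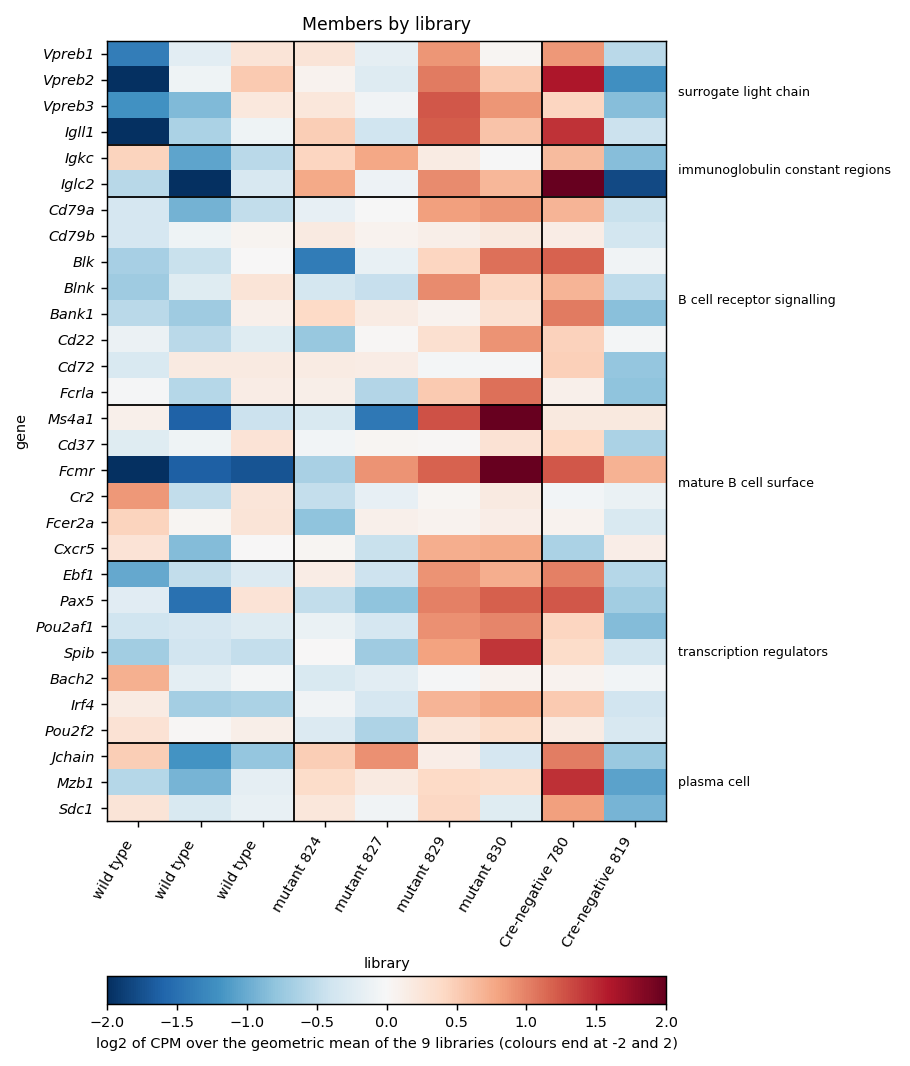
The 30 members measured (rows, by role) in the 9 libraries (columns), coloured by the log2 ratio of TMM-scaled CPM to the gene's geometric mean over the libraries, with colours ending at -2 and 2. The libraries mutant_829, mutant_830 and cre_negative_780 are red for most members, and cre_negative_819 is blue for most.

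In mutant against wild-type libraries, 26 of the 30 members had a positive log2 fold change, against 45.7% of all genes tested, and their median was 0.61 against -0.02 for all genes. No member passed the test by edgeR (0 of 30, and 0% of all genes), and their adjusted p-values lay at 0.998. Unadjusted p was under 0.05 for 6 members, all higher in mutant libraries: Fcmr, Cd79a, Vpreb3, Spib, Ebf1 and Igll1, where 1.86% of all genes did so in that direction. DESeq2 and limma-voom also called 0 members, against 0.192% and 0.07% of all genes. Bach2, Cr2, Fcer2a and Pou2f2 had negative values. For 5 members (Cd79a, Cd79b, Fcmr, Iglc2 and Mzb1) every mutant library lay above every wild-type one, which held for 4.17% of all genes, and no member lay below in all (4.15% of genes). The 23 members below 10 CPM had a median of 0.66 and the 7 above it a median of 0.15. Markers of mature neutrophils differed in the same direction: their summed level was 61.0 to 172 CPM in wild type and 140 to 433 in mutant libraries, with 10 of 11 genes positive and a median of 1.54. Summed markers of monocytes and macrophages were 151 to 247 and 186 to 268 CPM, with 9 of 10 positive. No marker on either list was at 0 in all libraries, none passed the test, and their part in the members' values was not tested.

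**Figure D2:**
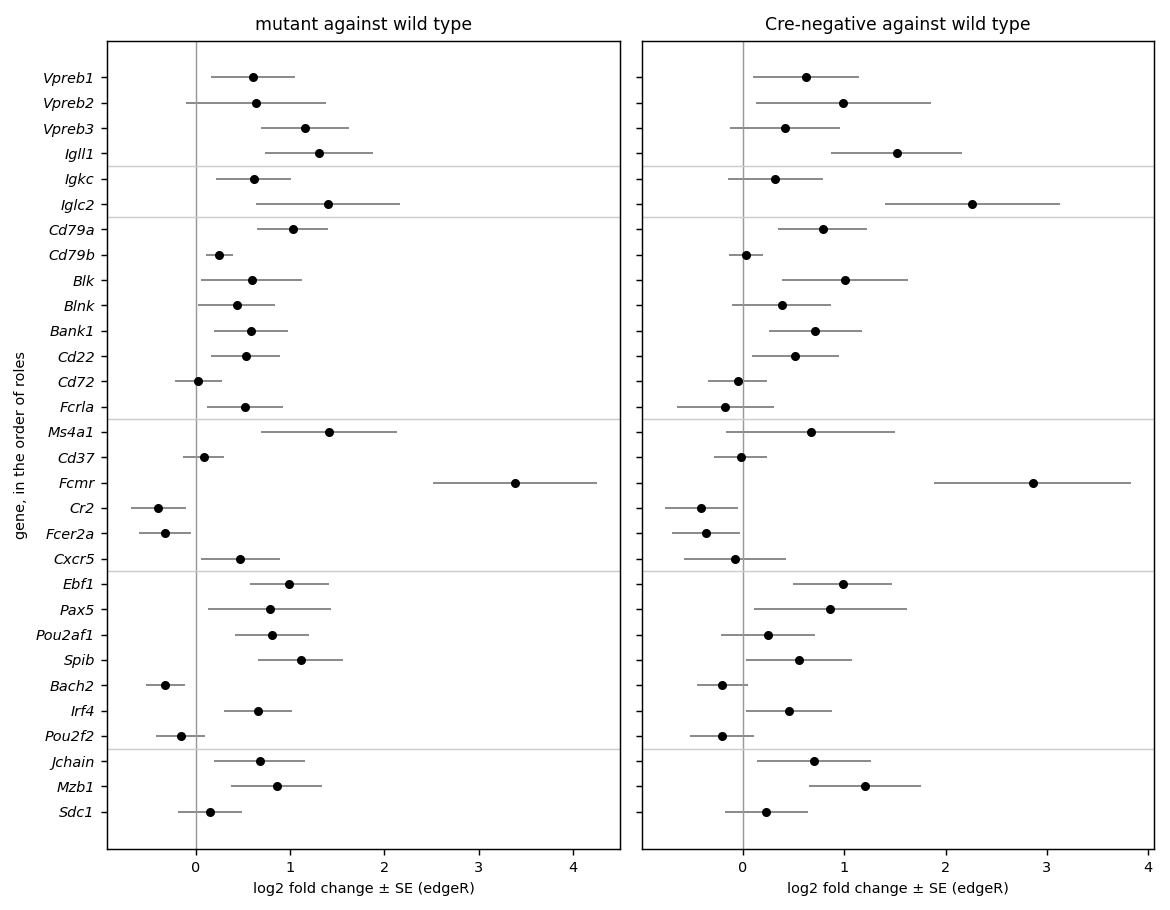
Fitted log2 fold changes (points) with standard errors (lines) by edgeR for the 30 members in order of role, for mutant against wild type and for Cre-negative against wild type, which share the wild-type libraries. Of the 30 points, 26 lie right of 0 on the left and 22 on the right, and Fcmr is the farthest out in both.

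The 4 surrogate light chain genes were all positive, with a median of 0.90. In what follows, values are in CPM, for wild type from lowest to highest, and for the other groups in the order in which their libraries are named above. Vpreb1 (ENSMUSG00000059305, chromosome 16, 16868403 to 16870843 of GRCm38, minus strand), the variable-like part of the surrogate chain, was at 0.782, 1.77 and 2.44 in wild type, at 2.44, 1.80, 3.78 and 2.11 in mutant, and at 3.73 and 1.41 in Cre-negative libraries. The groups overlapped, with a log2 fold change of 0.61 ± 0.45 (SE) that ranged from 0.29 to 1.01 with single libraries left out. Its exons overlap those of Top3b on the other strand, so part of its reads may belong to that gene. It also shares 86.6% of its transcript with Vpreb2, and reads that fit both equally were left out, so its level is uncertain.

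Igll1 (ENSMUSG00000075370, chromosome 16, 16860671 to 16863985, minus strand), the lambda5 part of the same chain, was at 0.577, 1.71 and 2.48 in wild type, at 3.71, 2.001, 6.08 and 3.91 in mutant, and at 7.16 and 1.96 in Cre-negative libraries. Of the mutant libraries, mutant_827 alone fell inside the wild-type range. The log2 fold change was 1.31 ± 0.57 (SE; unadjusted p = 0.0439, adjusted p = 0.998 by edgeR's quasi-likelihood test). Vpreb3 (ENSMUSG00000000903, chromosome 10, 75943057 to 75949657, plus strand), a related protein that binds immunoglobulin chains inside B cell precursors, was at 0.689, 0.863 and 1.84 in wild type, at 1.86, 1.52, 3.76 and 2.94 in mutant, and at 2.15 and 0.879 in Cre-negative libraries. Again mutant_827 alone lay within the wild-type range, and the log2 fold change was 1.16 ± 0.47 (SE; unadjusted p = 0.0319, adjusted p = 0.998 by edgeR). Vpreb2, the near copy of Vpreb1, had 2 to 25 counts per library and a log2 fold change of 0.64 ± 0.75 (SE). Across the role, mutant_829 and cre_negative_780 were the high libraries.

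Light chain constant regions gave a median log2 fold change of 1.01 over 2 genes. Igkc (ENSMUSG00000076609, chromosome 6, 70726435 to 70726966, plus strand) was at 26.8, 38.4 and 76.0 CPM in wild type, at 75.0, 95.6, 62.4 and 55.3 in mutant, and at 86.7 and 31.1 in Cre-negative libraries. The mutant values lay within or above the wild-type range, and the log2 fold change was 0.61 ± 0.40 (SE), ranging from 0.34 to 1.17 with single libraries left out. Iglc2 (ENSMUSG00000076937, chromosome 16, 19198396 to 19200351, minus strand), a lambda constant region, was at 0.401, 1.10 and 1.29 in wild type, at 2.72, 1.501, 3.09 and 2.55 in mutant, and at 8.53 and 0.458 in Cre-negative libraries. Every mutant library exceeded every wild-type one, and the log2 fold change was 1.40 ± 0.76 (SE; unadjusted p = 0.0939, adjusted p = 0.998 by edgeR). Its transcript is 95.1% identical to that of Iglc3. Reads that fit both copies equally have no unique alignment and were left out, so its level may be understated. The proportion of Iglc2 to Igkc was not constant. Per kilobase, Iglc2 was 0.0855 of Igkc in cre_negative_780 and 0.0126 to 0.0431 in the other 8 libraries.

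All 8 genes of receptor signalling were positive, with a median of 0.52. Cd79a (ENSMUSG00000003379, chromosome 7, 24897381 to 24902197, plus strand), the alpha signalling chain of the receptor, was at 0.662, 0.909 and 1.01 CPM in wild type, at 1.14, 1.27, 2.26 and 2.34 in mutant, and at 2.04 and 0.934 in Cre-negative libraries. The wild-type and mutant libraries did not overlap, and mutant_829 and mutant_830 stood apart from the other mutant ones. Their means were 0.859 ± 0.177 (SD, n = 3) and 1.75 ± 0.635 (SD, n = 4), and the fitted log2 difference was 1.03 ± 0.38 (SE; unadjusted p = 0.0221, adjusted p = 0.998 by edgeR). Cd79b (ENSMUSG00000040592, chromosome 11, 106311341 to 106314762, minus strand), the beta chain, was at 28.2, 33.5 and 36.9 in wild type, at 40.0, 37.2, 38.6 and 40.6 in mutant, and at 39.5 and 27.6 in Cre-negative libraries. These groups did not overlap either, by a margin of under 1 CPM, and the log2 fold change was 0.25 ± 0.14 (SE).

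Cd72 (ENSMUSG00000028459, chromosome 4, 43446462 to 43454628, minus strand), an inhibitory co-receptor, was at 30.2, 42.0 and 42.2 CPM in wild type, at 41.5, 41.1, 36.0 and 36.6 in mutant, and at 52.0 and 21.7 in Cre-negative libraries. The groups overlapped, with a log2 fold change of 0.02 ± 0.25 (SE) that was negative with limma-voom and ranged from -0.094 to 0.12 with single libraries left out. Fcrla (ENSMUSG00000038421, chromosome 1, 170917576 to 170927583, minus strand), an Fc receptor-like protein kept inside B cells, was at 1.12, 1.64 and 1.85 in wild type, at 1.80, 1.11, 2.38 and 3.55 in mutant, and at 1.79 and 0.953 in Cre-negative libraries. The high libraries were mutant_830 and mutant_829, mutant_827 was below all wild-type ones, and the log2 fold change was 0.52 ± 0.40 (SE), or 0.21 without mutant_830. The kinase Blk, the adaptor Blnk, the scaffold Bank1 and the inhibitory lectin Cd22 had log2 fold changes of 0.59, 0.43, 0.59 and 0.53, with standard errors of 0.37 to 0.54.

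Surface proteins of mature B cells were mixed, with 4 of 6 positive and a median of 0.27. Fcmr (ENSMUSG00000042474, chromosome 1, 130865669 to 130880791, plus strand), the receptor for the Fc part of immunoglobulin M, had 1, 2 and 2 counts in wild type, 4, 13, 16 and 44 in mutant, and 14 and 11 in Cre-negative libraries. In CPM these were 0.0186, 0.0379 and 0.0401, then 0.0799, 0.232, 0.283 and 0.836, then 0.295 and 0.202. No wild-type library exceeded 3 counts, all other libraries lay above them, and mutant_830 alone held 44 of the 77 mutant counts. The ratio of pooled counts, scaled to library size, was 11.2 for mutant to wild type, with a 95% exact interval of 4.59 to 35.4 that covers counting error only. The fitted log2 fold change of 3.39 ± 0.87 (SE) depends on the prior count at such levels (unadjusted p = 0.00276, adjusted p = 0.998 by edgeR), and without mutant_830 or another library it ranged from 2.57 to 3.74.

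Cd37 (ENSMUSG00000030798, chromosome 7, 45233632 to 45239115, minus strand), a tetraspanin of lymphocytes, was at 44.1, 49.4 and 63.1 CPM in wild type, at 50.2, 53.5, 53.3 and 63.6 in mutant, and at 69.2 and 33.6 in Cre-negative libraries. Wild type and mutant overlapped, with a log2 fold change of 0.08 ± 0.22 (SE) that was negative with limma-voom and ranged from -0.0033 to 0.25 with single libraries left out. Cr2 (ENSMUSG00000026616, chromosome 1, 195136811 to 195176716, minus strand), a receptor for complement fragments, was at 3.01, 5.03 and 7.77 in wild type, at 3.04, 3.79, 4.34 and 4.83 in mutant, and at 4.08 and 3.87 in Cre-negative libraries. The mutant values lay inside the wild-type range, and the log2 fold change of -0.40 ± 0.29 (SE) ranged from -0.67 to 0.015 with single libraries left out. The CD20 gene Ms4a1 gave 1.41 ± 0.72 (SE) on the log2 scale, with 2.10 and 3.50 CPM in mutant_829 and mutant_830 against 0.699 and 0.322 in mutant_824 and mutant_827, and 0.281 to 0.931 in wild type. The low-affinity receptor for immunoglobulin E, Fcer2a, gave -0.33 ± 0.28 (SE), and the chemokine receptor Cxcr5 gave 0.47 ± 0.42 (SE).

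Transcription regulators had 5 of 7 positive and a median of 0.78. Ebf1 (ENSMUSG00000057098, chromosome 11, 44617317 to 45008091, plus strand), which starts the B cell programme, was at 1.32, 1.91 and 2.23 CPM in wild type, at 2.995, 2.02, 4.998 and 4.45 in mutant, and at 5.41 and 1.81 in Cre-negative libraries. Library mutant_827 alone lay within the wild-type range. The means were 1.82 ± 0.462 (SD, n = 3) and 3.61 ± 1.36 (SD, n = 4), and the fitted log2 difference was 0.99 ± 0.42 (SE; unadjusted p = 0.0401, adjusted p = 0.998 by edgeR). Spib (ENSMUSG00000008193, chromosome 7, 44525993 to 44532071, minus strand), an ETS factor of B cells that plasmacytoid dendritic cells also make, was at 1.29, 1.495 and 1.59 in wild type, at 2.08, 1.27, 3.62 and 5.60 in mutant, and at 2.67 and 1.61 in Cre-negative libraries. Library mutant_827 was the lowest library of all and mutant_830 the highest, and the log2 fold change was 1.11 ± 0.45 (SE; unadjusted p = 0.0334, adjusted p = 0.998 by edgeR). Without mutant_830 it was 0.69. Summed markers of plasmacytoid dendritic cells were 381 to 418 CPM in wild type and 344 to 370 in mutant libraries. Most of each sum came from Tcf4, Runx2 and Irf8. The marker Siglech was at 0.909 to 1.39 in wild type and 0.899 to 1.82 in mutant libraries. In mutant_830, Siglech and Pacsin1 had their highest mutant value, while Tcf4, Runx2 and Cox6a2 had their lowest. Of the 9 markers tested, 3 were positive and 6 negative, against 45.7% of all genes positive. The part of these markers in Spib was not tested.

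Bach2 (ENSMUSG00000040270, chromosome 4, 32238804 to 32586108, plus strand), a repressor that holds back plasma cell formation, was at 12.1, 13.6 and 22.7 CPM in wild type, at 11.3, 12.02, 13.7 and 14.6 in mutant, and at 14.7 and 13.4 in Cre-negative libraries. The groups overlapped, and the log2 fold change of -0.32 ± 0.21 (SE) ranged from -0.49 to 0.030 with single libraries left out. Pou2f2 (ENSMUSG00000008496, chromosome 7, 25087344 to 25179726, minus strand), a POU factor that binds the octamer, was at 3.39, 3.60 and 4.06 in wild type, at 2.76, 2.18, 3.97 and 4.27 in mutant, and at 3.75 and 2.66 in Cre-negative libraries. The mutant libraries fell on both sides of the wild-type ones, with a log2 fold change of -0.16 ± 0.26 (SE) that was 0.011 without mutant_827. Its coactivator gene Pou2af1 gave 0.81 ± 0.40 (SE), Pax5 gave 0.78 ± 0.65 and Irf4, which plasma cells need, gave 0.66 ± 0.36.

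The 3 plasma cell genes were positive, with a median of 0.68. Jchain (ENSMUSG00000067149, chromosome 5, 88519809 to 88527891, minus strand), which links antibody polymers, was at 31.5, 42.0 and 101 CPM in wild type, at 101, 135, 78.4 and 57.2 in mutant, and at 146 and 43.0 in Cre-negative libraries. The groups overlapped, and the log2 fold change was 0.68 ± 0.48 (SE), ranging from 0.39 to 1.36 with single libraries left out. Jchain and Igkc kept a close proportion: Igkc was 2.81 to 4.58 times Jchain per kilobase over the 9 libraries, while each varied by more, 3.57 times for Igkc and 4.63 times for Jchain between its lowest and highest library in CPM. Mzb1 gave 0.86 ± 0.48 (SE) and stood at 1.48 to 1.73 CPM in mutant libraries against 0.682 to 1.15 in wild type. Sdc1, the plasma cell surface proteoglycan CD138, gave 0.15 ± 0.34 (SE).

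**Figure D3:**
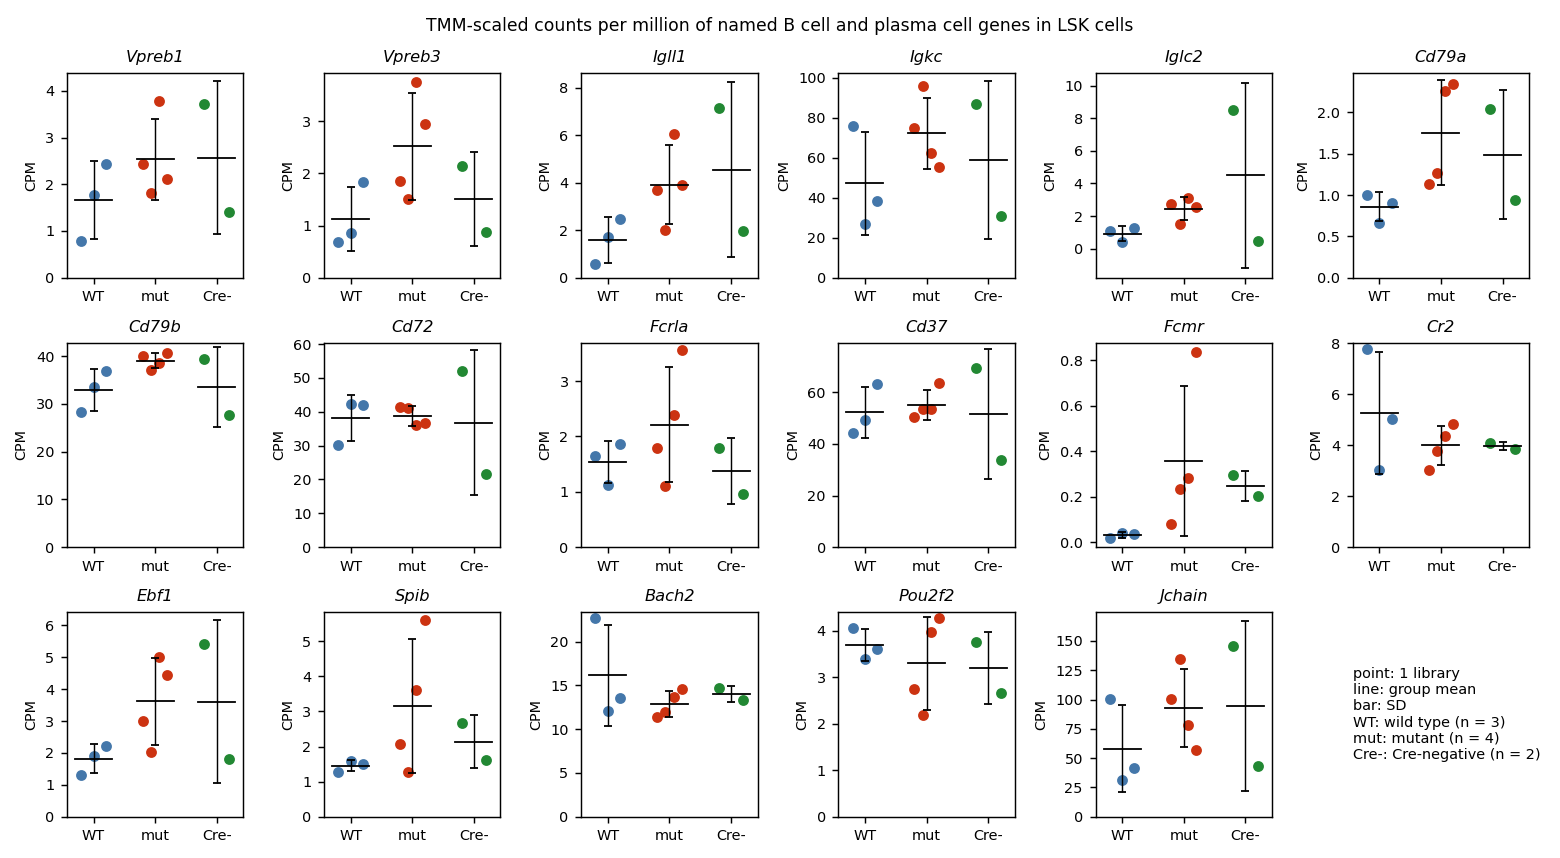
TMM-scaled CPM of the 17 members described in full, with 1 point per library, the group mean as a line and the SD as a bar, for wild type (n = 3), mutant (n = 4) and Cre-negative (n = 2). Cd79a, Cd79b, Fcmr and Iglc2 show mutant points above all wild-type points, and the 2 Cre-negative points lie far apart for most members.

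Cre-negative against wild-type libraries gave 22 of 30 members a positive log2 fold change, against 53.2% of all genes, with a median of 0.49 against 0.02. No member passed the test by edgeR (0% of all genes passed), and the smallest adjusted p was 0.807. Unadjusted p was under 0.05 for 3 members, Fcmr, Iglc2 and Igll1, all higher in the Cre-negative group, where 3.64% of all genes were so and 5.23% in either direction. DESeq2 and limma-voom called 0 members, against 0.316% and 0% of genes. For 4 members (Cd22, Fcmr, Ms4a1 and Spib) both Cre-negative libraries lay above all wild-type ones, against 6.25% of genes. None had both below (5.12% of genes). The margin was narrow for Cd22, Ms4a1 and Spib, at 1.28, 0.989 and 1.61 CPM in cre_negative_819 against wild-type maxima of 1.21, 0.931 and 1.59. Fcmr gave 2.86 ± 0.97 (SE) on the log2 scale, and its 25 Cre-negative counts against 5 in wild type were a ratio of 7.66 with a 95% exact interval of 2.88 to 25.6. Igll1 gave 1.52 ± 0.65 (SE) and Iglc2 gave 2.26 ± 0.86 (SE).

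The count of positive members, their median and the value of Iglc2 changed with the Cre-negative library left out, while Fcmr stayed at 2.54 to 3.10 with any single library left out. Without cre_negative_780, 8 of 30 members were positive, the median was -0.41, and Iglc2 turned to -1.05. Without cre_negative_819 in its place, 26 were positive and the median was 0.85. Of the members, Cd72 passed the test without cre_negative_780, at -0.84 ± 0.20 (SE; adjusted p = 0.0477 by edgeR, 3.37% of all genes called). Iglc2 and Mzb1 passed without cre_negative_819, at 3.17 ± 0.49 and 1.96 ± 0.32 (SE; adjusted p = 0.0411 and 0.0443 by edgeR, 0.318% of all genes called). Each of these fits leaves the group with 1 library, which is assumed to vary like the other groups. Summed markers of red cell precursors differed between the same libraries, at 929 CPM in cre_negative_780 and 3146 in cre_negative_819 against 658 to 864 in wild type. Car1 and Car2, at 1442 and 1363 CPM, made up most of the sum in cre_negative_819. Of the 10 genes, 6 lay above all wild-type libraries in cre_negative_819 and 1 in cre_negative_780. The globin genes Hba-a1, Hba-a2, Hbb-bs and Hbb-bt lay within the wild-type range in cre_negative_819. Neutrophil markers summed to 338 and 48.8 CPM in cre_negative_780 and cre_negative_819. Monocyte and macrophage markers summed to 279 and 334 CPM against 151 to 247 in wild type, with F13a1 the most abundant at 120 and 176 CPM. The fitted log2 fold change was positive for 10 of 10 of these genes, against 53.2% of all genes (median 0.84, none passing the test by edgeR). Each Cre-negative library lay above all wild-type libraries for 6 of the 10 and below them for 0. The part of these marker lists in the members' values was not tested.

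Mutant against Cre-negative libraries gave 19 of 30 members a positive log2 fold change, against 44.2% of all genes, with a median of 0.04 against -0.03. No member passed the test by edgeR (0% of all genes passed; smallest adjusted p 0.948), none had an unadjusted p under 0.05 (5.26% of all genes in either direction, 1.55% and 3.71% in each), and no member's groups were free of overlap (5.09% of genes above and 7.27% below). DESeq2 and limma-voom called 0 members, against 0.144% and 0% of genes. The lowest p-values belonged to Fcrla, Vpreb3 and Cd79b, at 0.69 ± 0.46, 0.74 ± 0.53 and 0.22 ± 0.16 (SE). Fcmr counts, 77 against 25, were a ratio of 1.46 with a 95% exact interval of 0.919 to 2.39. Without cre_negative_780, 29 of 30 members were positive with a median of 0.92, and Cd37, Cd72, Iglc2, Mzb1 and Sdc1 passed the test at 0.76, 0.89, 2.47, 1.44 and 1.08 (adjusted p from 0.0215 to 0.0483 by edgeR, 9.51% of all genes called). Without cre_negative_819, 9 of 30 were positive, the median was -0.21 and no member passed (0.0462% of all genes called).

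Members of different roles peaked in different libraries, as the plot of medians by role shows. Library cre_negative_780 held the highest level of 12 members and mutant_830 that of 11, while cre_negative_819 held the lowest of 8. The median deviation over all 30 members was 0.60 and 0.55 on the log2 scale in mutant_829 and mutant_830 and 0.58 in cre_negative_780. It was 0.02 and -0.16 in mutant_824 and mutant_827, and between -0.52 and -0.02 in the wild-type libraries. Genes of the receptor and its regulators (Ms4a1, Spib, Cd22, Pou2af1 and Fcrla) were highest in mutant_830. Surrogate light chain genes were highest in mutant_829 or cre_negative_780. Jchain and Igkc were instead highest in cre_negative_780 or mutant_827, and mutant_830 was the lowest mutant library for both.

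**Figure D4:**
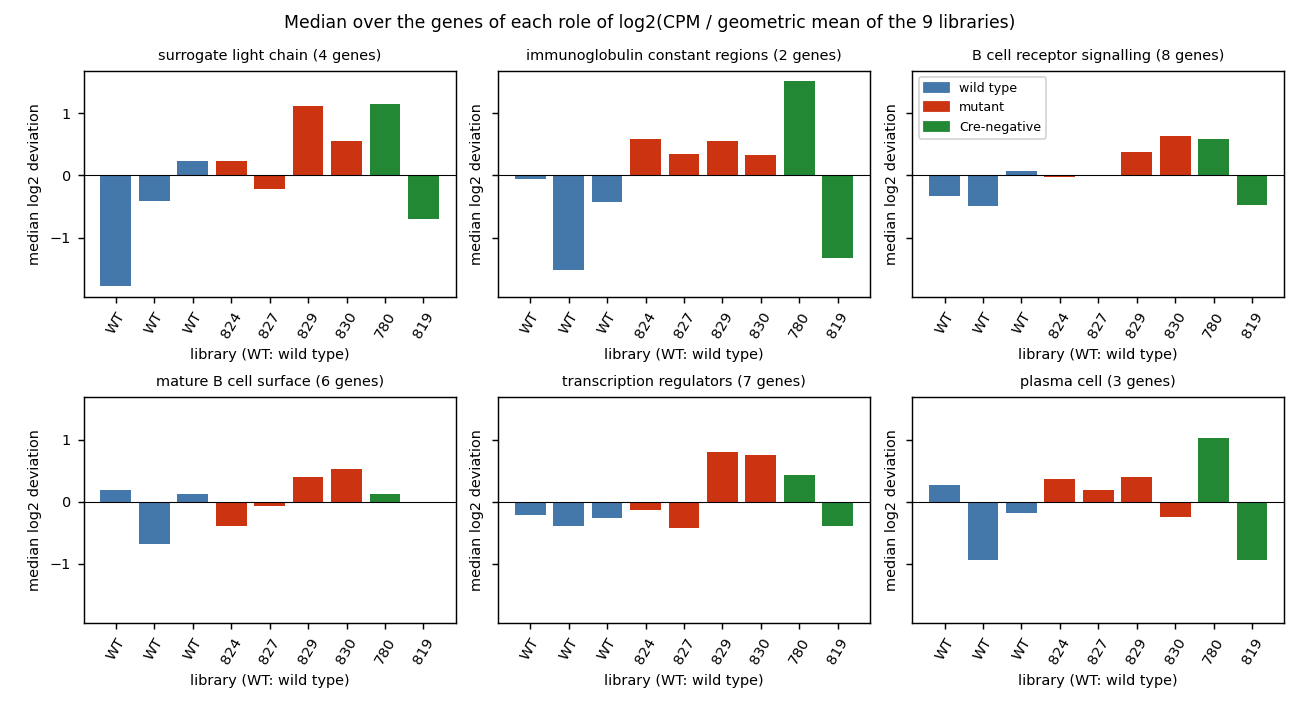
Median over the members of each role of the log2 ratio of CPM to the gene's geometric mean over the 9 libraries (vertical axis), by library (horizontal axis, with numbers for mutant and Cre-negative), with bars coloured by group. The medians of mutant_829 and mutant_830 are above 0 for all roles but plasma cell in mutant_830, cre_negative_780 is above 0 throughout, and cre_negative_819 is below 0 throughout.

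Other genes of the pathway were read from 3 lists. Of 12 genes of early lymphoid cells and V(D)J recombination, 7 were positive and 5 negative in mutant against wild type with a median of 0.18, against 45.7% of all genes positive. In Cre-negative against wild type 12 of 12 were positive with a median of 0.33, against 53.2% of all genes, but the 2 Cre-negative libraries differed. The 12 genes summed to 1523 CPM in cre_negative_780 and 1264 in cre_negative_819, against 1147 to 1351 in wild type. Most of each sum came from Dntt, Cd24a and Ikzf1. The most abundant was Dntt, the enzyme that adds bases at recombination joints, at 384 to 527 CPM in mutant, 402 to 532 in wild-type libraries, 696 in cre_negative_780 and 289 in cre_negative_819. Of 11 signalling genes shared with other blood cells, 8 were positive in mutant against wild type and the median was 0.05. Their most abundant member, the phospholipase gene Plcg2, stood at 396 to 449 CPM in mutant and 360 to 413 in wild-type libraries. Of 13 further late B and plasma cell genes, 9 were positive with a median of 0.33, and the heavy chain constant region Ighm was at 142 to 163 CPM in mutant and 152 to 179 in wild type. None of these genes passed the test in any of the 3 comparisons. Igha, the heavy chain constant region of immunoglobulin A and named after its values were seen, was highest in cre_negative_780 and mutant_824 at 285 and 225 CPM.

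**Figure D5:**
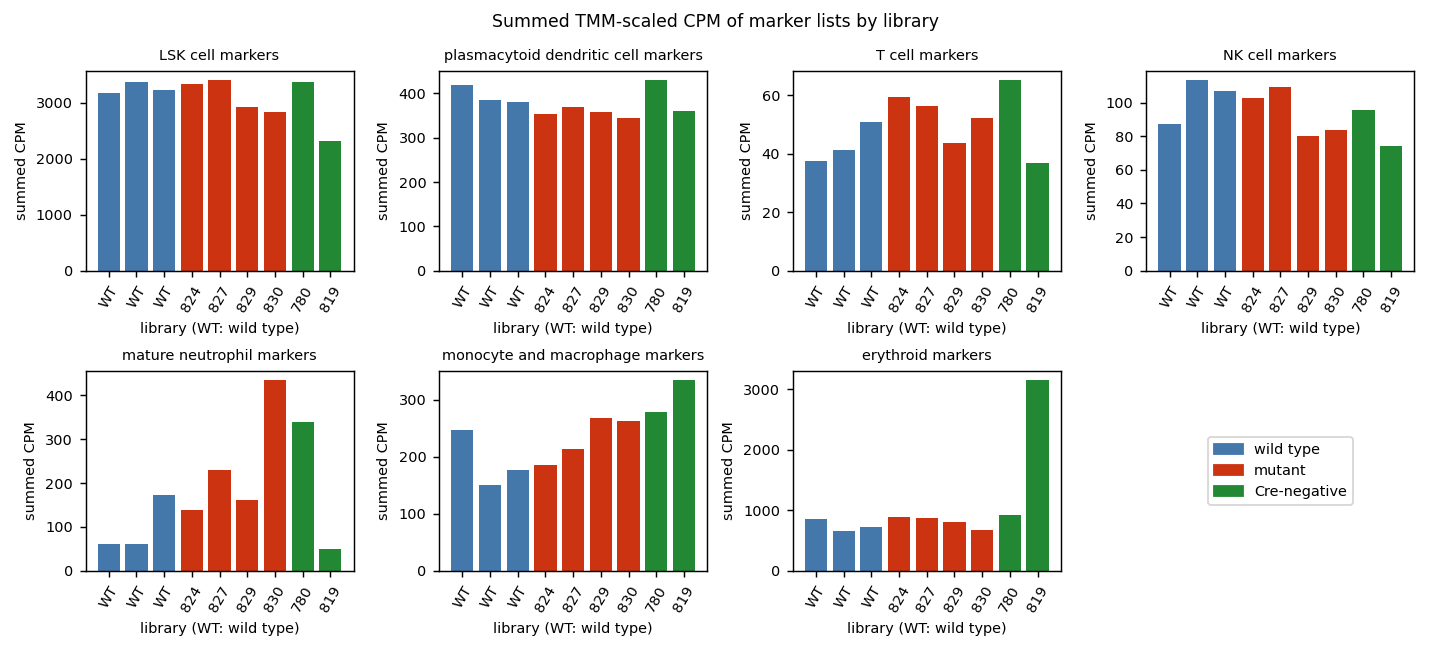
Summed TMM-scaled CPM (vertical axis) of 7 marker lists in each library (horizontal axis, with numbers for mutant and Cre-negative), coloured by group. LSK markers span 2315 to 3406 CPM, neutrophil markers reach 433 in mutant_830, and the markers of red cell precursors reach 3146 in cre_negative_819.

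Markers of other cells were checked beside these results. T cell markers summed to 37.5 to 51.0 CPM in wild type, 43.8 to 59.5 in mutant and 65.2 and 36.9 in cre_negative_780 and cre_negative_819. Markers of natural killer cells summed to 87.1 to 113, 80.3 to 109, and 95.8 and 74.3 CPM in the same order. Most of each sum came from 1 gene, Lat at 27.4 to 49.3 CPM and Nkg7 at 71.1 to 109 CPM. The T cell marker Cd3e reached at most 0.110 CPM and the natural killer cell marker Ncr1 at most 0.611. The sums therefore mainly follow Lat and Nkg7. Strand use in counting is not given in the sources used here. Exons of Cd72, Cd37, Cxcr5, Pax5, Bach2 and Cd22 each overlap a gene on the other strand, to which part of their reads may belong. Those of Mzb1, Iglc2 and Pou2f2 overlap SPATA24, Iglj2 and Mir6537 on the same strand, so part of their reads may belong to those genes.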

How the data were processed

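Stranded libraries were built from ribosome-depleted total RNA of sorted LSK cells, per the labels' protocols. HTSeq 0.5.3p3, STAR and DESeq2 and the build mm10 (GRCm38) are named in the submitters' processing notes. What the sources used here leave unstated are the annotation, the strand setting and which release of STAR and DESeq2 was run. The authors deposited raw counts per Ensembl gene. Their other deposited table holds a scaled signal: each column is the count column over a single factor (to a relative tolerance of 5.11e-15), and it entered no test. Rows naming no gene (40.5% to 47.3% of counts) were left out, among them reads without a unique alignment (21.6% to 28.3%).

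Symbols, coordinates and merged exon lengths came from GENCODE M21, which matched 37607 of the 39179 identifiers, and promoter sequences from RefSeq. Groups and library numbers came from sample titles. Libraries of a group differed beyond sampling noise (a chi-square of 13.4 or more per degree of freedom). Genes kept by filterByExpr were scaled by TMM and fitted over all 9 libraries with edgeR 4.0.16 (R 4.3.3), by its two-sided quasi-likelihood test with Benjamini-Hochberg adjustment at 0.05. Standard errors are the log2 fold change over the square root of F. Alternatives used limma 3.58.1 with voom, DESeq2 1.42.0, RLE and upper-quartile scaling, other filters (none, or 1 CPM in 4 libraries), the 2 groups compared alone, a Y-linked covariate, and leaving out every library once. The script for edgeR was first tested on simulated data.

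Members, lists and roles were chosen with earlier results of these data known. Values in full are given for the 2 members of each role with the highest mean CPM (1 for a role of 3 or fewer), the 6 with the lowest p in mutant against wild type and the 3 with the lowest in each other comparison, and of other lists the most abundant gene. A gene and a library are not reported here by name. Depth limits precision most for members with few counts, and intervals cover counting error only.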

Additional observations from a re-analysis of the deposited data

Results flagged for a closer look

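Among the 30 members, 1 had a library far from the rest of its group. Fcer2a, the low-affinity receptor for immunoglobulin E, stood at 0.879 CPM in mutant_824 against 1.61 to 1.67 in the other 3 mutant libraries, a gap of 0.919 of the group's range, above Dixon's 95% critical value for 4 libraries. Chance alone gives such a gap in about 1 of 20 groups, and the groups of 3 and of 2 libraries were not examined in this way.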

How the results depend on the processing

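No paired analysis was possible because the library numbers differ between groups. In mutant against wild type, 24 to 27 of 30 members stayed positive under the alternatives that tested all 30, and 20 of 24 with a filter of 1 CPM in 4 libraries. Their median ranged from 0.57 to 0.64 under the 8 alternatives that keep every library and from 0.44 to 0.78 with each library left out, and 0 members passed. DESeq2 called 38, 56 and 27 genes in mutant against wild type, Cre-negative against wild type and mutant against Cre-negative, where edgeR called 0, and limma-voom called 13 in the first and 0 in the others. No member was among them. With limma-voom, Cd72 was at -0.10 and Cd37 at -0.037 in mutant against wild type. With each library left out, ranges in that comparison were -0.094 to 0.12 for Cd72, -0.0033 to 0.25 for Cd37, -0.67 to 0.015 for Cr2, -0.49 to 0.030 for Bach2 and -0.30 to 0.011 for Pou2f2.

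The comparisons with the Cre-negative group turned on its 2 libraries. With each library left out, Cre-negative against wild type gave 0 to 650 genes, 0 to 2 members, a median of -0.41 to 0.85 and -1.05 to 3.17 for Iglc2. Mutant against Cre-negative gave 0 to 1835 genes, 0 to 5 members and a median of -0.21 to 0.92. With limma-voom, 19 of 30 members were positive in the former (median 0.13) and 28 in the latter (median 0.27). The extremes among the left-out libraries came without cre_negative_780 or cre_negative_819, and the cause was not tested. Depth limits Fcmr, Vpreb2 and Pax5 most, each with 10 counts or fewer in at least 1 library.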
